A study of Homo sapiens with 6 samples.

Results

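Expression of 9 genes of the MHC class I pathway was followed in the established CLL-like (chronic lymphocytic leukaemia) human B cell line Mec-1: HLA-B, HLA-C, HLA-E, HLA-F, HLA-G, B2M, TAP1, TAP2 and TAPBP. The genes were chosen by name, with earlier results of these data known. All 15 probes annotated to them among 47323 listed on the Illumina beadchip were taken. Of these probes 14 passed the filter on dim signals, at least 1 for each of the 9 genes, so all 9 were among the 10832 genes tested. The tested group consisted of 3 samples of Mec-1 cells carrying an shRNA against SLAMF1 (SLAMF1 shRNA), a short hairpin RNA in the vector pGFP-V-RS, and the other group of 3 samples of Mec-1 cells carrying a scrambled, non-effective shRNA (control shRNA). Both were grown in culture in complete medium, and Mec-1 expresses SLAMF1, the receptor CD150, constitutively per the labels. The design text speaks of 1 silenced Mec-1 variant and of biological replicates, without saying what was repeated. The p-values therefore reflect only how far these samples differed from one another, which may be technical. The comparison asks which transcripts differ when SLAMF1 is silenced.

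Class I molecules display peptides from inside the cell to CD8 T cells and to natural killer cell receptors. Each consists of a heavy chain, encoded by an HLA gene in the MHC region of chromosome 6, and the light chain beta-2-microglobulin, encoded by B2M outside that region on chromosome 15. Peptides made by the proteasome are pumped into the endoplasmic reticulum by the transporter TAP, a dimer of TAP1 and TAP2, and tapasin, the product of TAPBP, bridges the transporter and the waiting heavy chain until a peptide is bound. In B cells most of these genes are expressed constitutively and respond to interferons.

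The 6 arrays had mean signals of 208 to 247 with SLAMF1 shRNA and 231 to 294 with control shRNA, and 36.3% to 41.4% of probes were detected. SLAMF1 shRNA replicate 2 stood apart: over all tested genes it correlated with replicates 1 and 3 at 0.928 and 0.942, whereas those correlated at 0.994 with each other, and results that rest on it are given with and without it. That array also had the lowest mean signal, 208, and the lowest share of probes detected, 36.3%, against 39.9% to 41.4% on the others. SLAMF1 itself was not lower in the samples labelled SLAMF1 shRNA, with log2 levels of 8.70, 8.44 and 8.64 against 8.26, 8.38 and 8.01 in control samples (log2 fold change 0.38, 95% interval -0.03 to 0.79, limma adjusted p = 0.153). For that transcript the arrays go against the label, and each direction given here follows the labels. Of 6 B cell markers measured, 5 were detected on all 6 arrays, the exception being PAX5. Of 4 T cell, 4 NK cell, 5 myeloid and 5 epithelial and stromal markers, 0 were detected on all 6 arrays.

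The class I heavy chain genes and tapasin were higher in the samples labelled SLAMF1 shRNA, while the light chain gene and both transporter genes did not pass the test. Of the 9 genes, 6 were higher and 0 lower (limma adjusted p under the threshold of 0.05), all of them by at least 2.14-fold, and the median log2 fold change was 1.23. Over all tested genes 24.6% passed, 12.9% as higher and 11.7% as lower, and the median was 0.02. The levels of the 2 groups did not overlap for 7 of the 9 genes, as for 45.7% of all tested genes. By probe, 7 of the 14 probes passed when each was tested separately, against 18.7% of all kept probes. Expression was measured in bulk RNA, so a change in all cells and a change in the share of cells with a high level cannot be told apart.

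**Figure D1:**
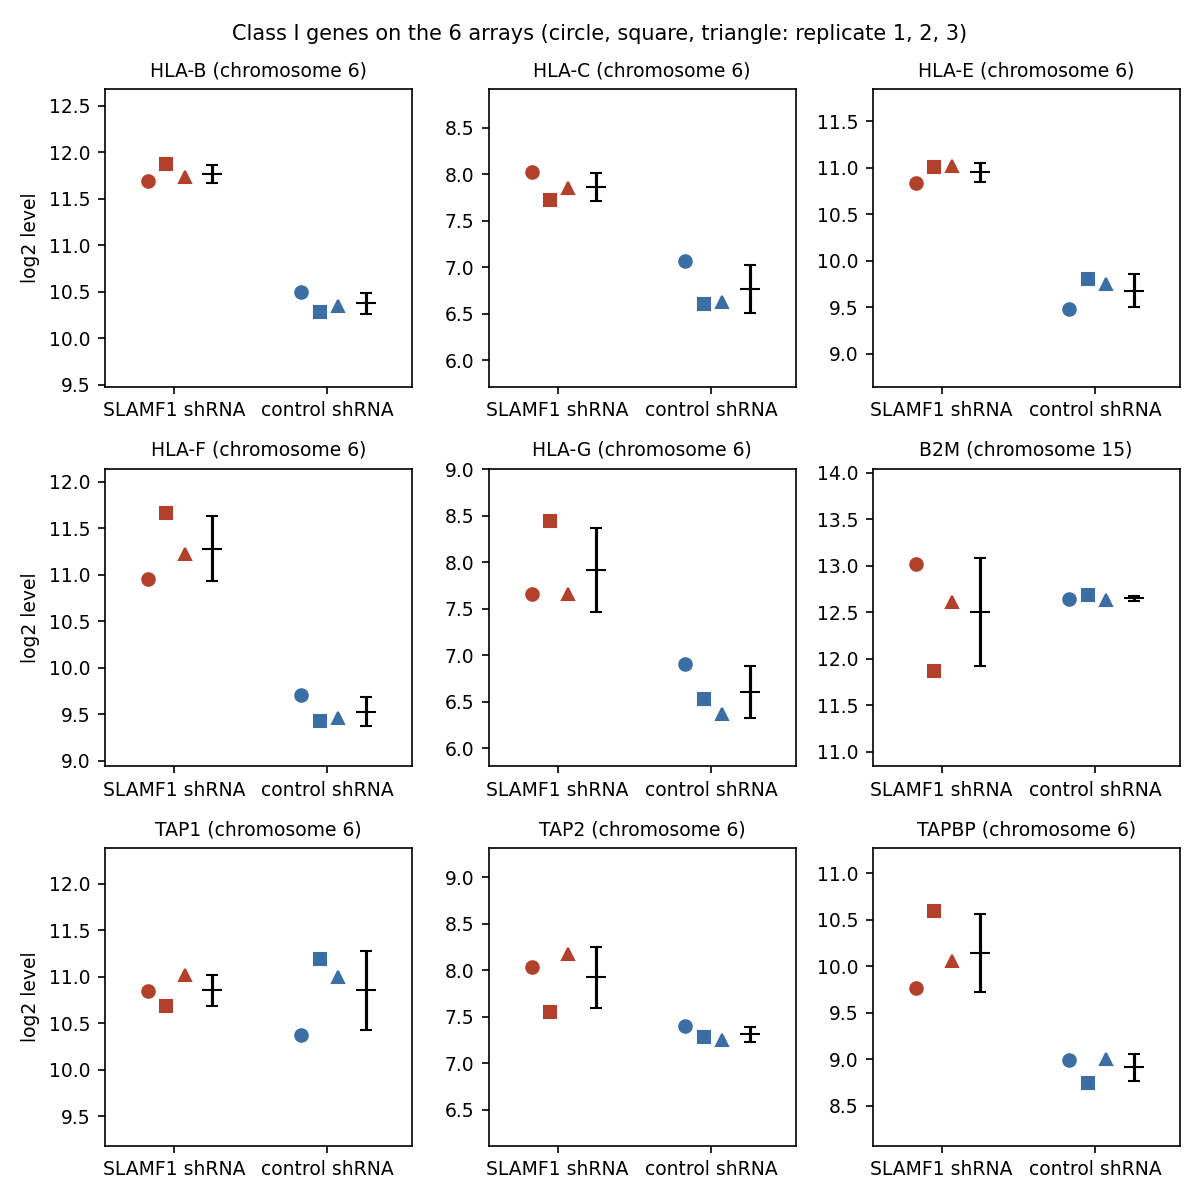
Log2 level (nec-corrected, quantile-normalized) of each gene's tested probe on the 6 arrays; red, SLAMF1 shRNA; blue, control shRNA; circle, square and triangle are replicates 1, 2 and 3, the bar is the mean with its SD (n = 3), and each panel spans the same height on the log2 scale. The 5 HLA genes and TAPBP sit higher with SLAMF1 shRNA with no overlap, TAP2 is shifted less, and the B2M and TAP1 groups overlap.

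Among the heavy chains, HLA-B, a classical gene whose product presents peptides to CD8 T cells, had log2 levels of 11.69, 11.88 and 11.74 with SLAMF1 shRNA, against 10.50, 10.28 and 10.34 with control shRNA. All 3 SLAMF1 shRNA arrays lay above all 3 control arrays, and the group means were 11.77 ± 0.10 and 10.38 ± 0.11 (SD, n = 3 each). The gene was 2.63-fold higher (log2 fold change 1.39, SE 0.16, limma adjusted p = 0.000768). HLA-C, the classical gene that is also the main ligand of killer cell immunoglobulin-like receptors, had 8.02, 7.73 and 7.85 with SLAMF1 shRNA, against 7.07, 6.61 and 6.63 with control shRNA. The groups did not overlap, and HLA-C was 2.14-fold higher (1.10, SE 0.19, limma adjusted p = 0.00557). With median centring of the arrays, under which the median log2 fold change of all genes was -0.14, HLA-C gave 0.82 and did not pass (adjusted p = 0.124). A second HLA-C probe was detected on 0 of the 6 arrays and gave no information.

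The nonclassical heavy chains moved in the same direction. HLA-E, which presents leader peptides of other class I chains to the receptor CD94/NKG2A, had 10.83, 11.003 and 11.01 with SLAMF1 shRNA, against 9.48, 9.80 and 9.75 with control shRNA, with no overlap between the groups. It was 2.42-fold higher (log2 fold change 1.27, SE 0.17, limma adjusted p = 0.00158). HLA-F, a chain that can reach the surface without peptide, showed the largest difference of the 9 genes, with 10.96, 11.66 and 11.23 against 9.71, 9.43 and 9.46 in control samples. It was 3.37-fold higher (1.75, SE 0.22, limma adjusted p = 0.00107), and its second probe, annotated to another transcript, gave a similar value of 1.68 (SE 0.25, adjusted p = 0.00389 over all kept probes). HLA-G, known best from the placenta as an inhibitory ligand of leukocyte receptors, had 7.66, 8.44 and 7.65 with SLAMF1 shRNA, against 6.91, 6.53 and 6.37 with control shRNA. Its groups did not overlap and it was 2.49-fold higher (1.32, SE 0.26, limma adjusted p = 0.00954), a call that was lost without control replicate 3 (adjusted p = 0.0575). Class I heavy chain genes are close relatives in sequence, so a probe of HLA-G, HLA-F or another of these genes may detect more than 1 of them, and the 5 values may not be independent.

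The loading genes divided. TAPBP had log2 levels of 9.77, 10.60 and 10.05 with SLAMF1 shRNA, against 8.99, 8.74 and 9.004 with control shRNA, and was 2.34-fold higher (log2 fold change 1.23, SE 0.23, limma adjusted p = 0.00804). Its other probes, annotated to other transcripts, were dimmer and gave 0.28 (SE 0.21) and 0.52 (SE 0.29), with adjusted p = 0.394 and 0.249 over all kept probes. The rise of TAPBP therefore rests on the brightest of its 3 probes.

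TAP1 overlapped fully between the groups, with 10.85, 10.69 and 11.02 with SLAMF1 shRNA, against 10.37, 11.19 and 10.99 with control shRNA. The lowest and the highest of the 6 values were both control arrays. Its log2 fold change was 0.00 (SE 0.24, limma adjusted p = 0.994), with a 95% interval of -0.55 to 0.55. TAP2, the partner subunit, had 8.04, 7.55 and 8.18 with SLAMF1 shRNA, against 7.41, 7.28 and 7.25 with control shRNA. The groups did not overlap, but SLAMF1 shRNA replicate 2 came close to the control arrays, and the log2 fold change of 0.61 (SE 0.20) missed the threshold (limma adjusted p = 0.0625). Without SLAMF1 shRNA replicate 2 it was 0.78 and passed (adjusted p = 0.00202). The second TAP2 probe, annotated to another transcript, overlapped between the groups and gave 0.09 (SE 0.25), so the 2 probes of TAP2 differed by over 0.5 on the log2 scale.

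B2M, whose product pairs with every class I heavy chain named here, was not called by either of its probes. The brightest probe had 13.02, 11.87 and 12.61 with SLAMF1 shRNA, against 12.64, 12.68 and 12.63 with control shRNA, a log2 fold change of -0.15 (SE 0.28, limma adjusted p = 0.727, 95% interval -0.80 to 0.50). SLAMF1 shRNA replicate 2 was the lowest and replicate 1 the highest of all 6 values, and without replicate 2 the log2 fold change was 0.16 (adjusted p = 0.521). The second probe had 12.60, 12.47 and 12.74 with SLAMF1 shRNA, against 12.38, 12.40 and 12.32 with control shRNA. Its groups did not overlap, and it gave 0.24 (SE 0.16, adjusted p = 0.323 over all kept probes, 95% interval -0.12 to 0.60). The brightest probe had signals of 3255 to 8424 with SLAMF1 shRNA and 5820 to 8804 with control shRNA, below the highest signals on the arrays of 13833 to 15693.

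Within the SLAMF1 shRNA group the 9 genes did not vary together. Replicate 2 was the highest of the 3 for HLA-B, HLA-F, HLA-G and TAPBP and the lowest for HLA-C, B2M, TAP1 and TAP2. Leaving it out gave log2 fold changes of 1.31 for HLA-B, 1.16 for HLA-C, 1.23 for HLA-E, 1.54 for HLA-F, 1.06 for HLA-G and 0.98 for TAPBP, and with TAP2 the number of genes called higher was 7. The number was 5 without control replicate 3, where HLA-G was lost. With 3 arrays against 3, the exact permutation test of a single gene cannot go below 0.10 (two-sided). It gave that smallest value for the 6 genes called and for TAP2, 0.70 for B2M and 1 for TAP1.

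The heavy chain and loading genes of chromosome 6 were then compared with B2M directly, by fitting limma to each gene's log2 level minus that of B2M on the same array. With the brightest B2M probe, the change of HLA-F exceeded that of B2M by 1.90 on the log2 scale (SE 0.45, adjusted p = 0.0245) and that of HLA-B by 1.54 (SE 0.39, adjusted p = 0.0375), and these 2 of the 8 genes passed, against 6.14% of all tested genes in either direction and 3.6% as higher. The differences for HLA-E (1.42, adjusted p = 0.0530), HLA-C (1.25, adjusted p = 0.0657), HLA-G (1.47, adjusted p = 0.0930) and TAPBP (1.38, adjusted p = 0.108) missed the threshold in limma, though each had a 95% interval above 0. The TAP2 difference was 0.76 (95% interval 0.01 to 1.51, adjusted p = 0.240) and that of TAP1 0.15 (-0.69 to 0.99, adjusted p = 0.878). All 8 differences share the same B2M values and so the same error.

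The number that passed relative to B2M depended on the B2M probe and on single arrays. With the second B2M probe, an alternative chosen after seeing the data, 6 of the 8 passed in limma, against 7.09% of all tested genes as higher, with differences of 0.86 (HLA-C, adjusted p = 0.0164) to 1.51 (HLA-F, adjusted p = 0.00296). TAP2 (0.37, adjusted p = 0.186) and TAP1 (-0.24, adjusted p = 0.490) were the exceptions. Without SLAMF1 shRNA replicate 2, in which the brightest B2M probe was low, 7 passed by either B2M probe, and without SLAMF1 shRNA replicate 1 6 passed. Without SLAMF1 shRNA replicate 3 or any 1 control replicate 0 passed in limma, although every difference other than that of TAP1 stayed at or above 0.69. The differences other than that of TAP1 were positive under all alternatives, from 0.30 for TAP2 to 2.34 for HLA-F.

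**Figure D2:**
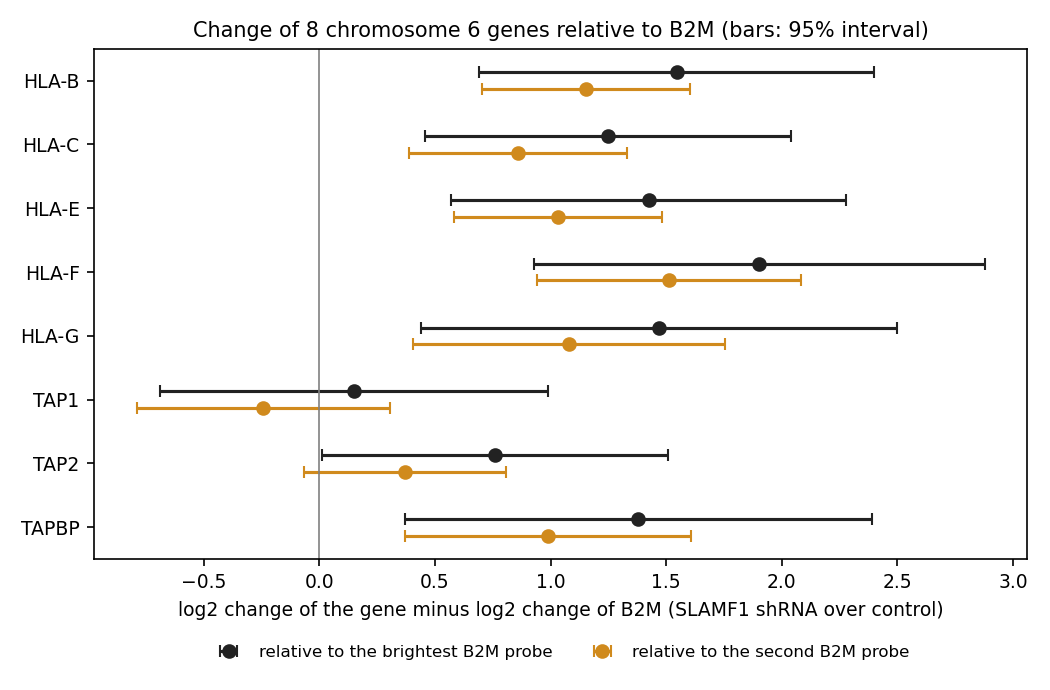
Log2 change (SLAMF1 shRNA over control shRNA) of each chromosome 6 gene minus the change of B2M, with 95% intervals from limma; black, brightest B2M probe; orange, the second B2M probe. The 5 HLA genes and TAPBP lie at 0.86 or above by both probes, and the TAP1 intervals span 0.

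The bases before the start sites are shown for HLA-B, HLA-F and TAPBP, which were called higher, and for TAP1 and B2M, which were not. The sequences are from RefSeq (GRCh38.p14), 250 bases upstream of the gene's start, 5′ to 3′ on the gene's strand. Capitals mark matches, on either strand, to the letters GAANNGAAA or GAAANNGAA (cores of the interferon-stimulated response element), GGGANTCCC (a kappaB core) and CCAAT.
HLA-B, chr6:31357180-31357429, minus strand: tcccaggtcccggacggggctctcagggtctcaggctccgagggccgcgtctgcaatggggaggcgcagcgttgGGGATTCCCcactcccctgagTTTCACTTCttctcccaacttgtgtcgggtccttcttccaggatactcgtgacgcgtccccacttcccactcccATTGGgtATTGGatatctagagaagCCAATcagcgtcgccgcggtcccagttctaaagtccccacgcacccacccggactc
HLA-F, chr6:29723184-29723433, plus strand: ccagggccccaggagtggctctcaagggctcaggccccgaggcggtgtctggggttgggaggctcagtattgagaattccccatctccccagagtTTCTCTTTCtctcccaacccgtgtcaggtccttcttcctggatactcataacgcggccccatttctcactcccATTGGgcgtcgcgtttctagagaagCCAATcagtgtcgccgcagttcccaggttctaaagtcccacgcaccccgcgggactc
TAPBP, chr6:33314079-33314328, minus strand: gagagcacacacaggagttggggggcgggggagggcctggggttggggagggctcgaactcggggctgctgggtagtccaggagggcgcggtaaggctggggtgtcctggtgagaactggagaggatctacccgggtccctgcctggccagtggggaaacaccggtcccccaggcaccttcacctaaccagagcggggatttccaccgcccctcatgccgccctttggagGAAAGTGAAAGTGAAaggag
TAP1, chr6:32853705-32853954, minus strand: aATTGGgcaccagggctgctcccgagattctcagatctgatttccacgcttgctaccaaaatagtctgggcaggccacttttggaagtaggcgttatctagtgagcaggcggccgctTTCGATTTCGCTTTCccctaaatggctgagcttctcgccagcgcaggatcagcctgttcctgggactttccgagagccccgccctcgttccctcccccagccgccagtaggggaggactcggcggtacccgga
B2M, chr15:44711267-44711516, plus strand: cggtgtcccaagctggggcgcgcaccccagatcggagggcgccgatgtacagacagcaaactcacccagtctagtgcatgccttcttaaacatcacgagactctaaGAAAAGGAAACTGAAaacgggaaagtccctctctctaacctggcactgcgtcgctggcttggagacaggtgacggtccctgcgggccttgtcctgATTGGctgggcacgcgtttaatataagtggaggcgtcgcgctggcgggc

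Of the 9 genes 8 had a window in the RefSeq table, HLA-G with 3 start sites and TAP1 with 2. Matches are counted by gene, over any of its windows, while the percentages are of single windows, so they are not like for like. GAANNGAAA was found for HLA-B, HLA-C and TAP2 and in 6.56% of all 35116 windows, and GAAANNGAA for HLA-F, B2M, TAP1, TAP2 and TAPBP and in 6.88% of all windows. At least 1 of these was thus present for 7 of the 8 genes, against 12.4% of all windows, among called and not called genes alike. In B2M, TAP1 and TAPBP 2 matches of GAAANNGAA share letters, and in TAP2 the matches of both forms overlap. GGGANTCCC was found for HLA-B and in 0.772% of windows, and CCAAT for 6 of the 8 genes and in 32% of windows. A match of letters is a description and not a site shown to be used.

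The MHC region was examined around the genes, because HLA-F, HLA-G, HLA-E, HLA-C and HLA-B lie in its class I zone and TAP2, TAP1 and TAPBP in its class II zone. Between GABBR1 and KIFC1 in the RefSeq order, 86 tested neighbours were neither HLA genes nor in any list examined here. Of these 11 were higher and 7 lower (20.9%, against 24.6% of all genes), with a median log2 fold change of 0.27. In the class I zone 3 of 28 neighbours were higher and 1 lower (median 0.21), in the class III zone 5 of 43 were higher and 6 lower (0.26), and in the class II zone 3 of 15 were higher and 0 lower (0.39). The called neighbours of the class I zone were FLOT1 (1.57), NRM (1.17), DDR1 (0.77) and DHX16 (-0.53). Some of those not called were dim, where a change is understated, such as POU5F1 (mean 4.44 with SLAMF1 shRNA, 4.49 with control shRNA). Others were bright, such as TUBB (12.59 and 12.81). The number of higher neighbours was 7, 6 and 4 without control replicates 1, 2 and 3, and the number of lower ones was 11 without SLAMF1 shRNA replicate 2.

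By median log2 fold change, the adjoining stretches lay closer to the neighbours than to the class I genes. The share called varied, against 20.9% of the neighbours and 24.6% of all genes. Of the 25 tested genes before the region 6 were higher and 4 lower (40%, median 0.31). Of the 25 after it 4 were higher and 1 lower (20%, median 0.18). In the rest of chromosome 6, 53 of 432 genes were higher and 111 lower (38%, median -0.15). The 8 class I genes of the region had a median of 1.25. The 13 other tested HLA genes there, which are MHC class II genes and the class I pseudogene HLA-H, had a median of 1.01. Of these 7 were higher and 0 lower (53.8%, against 24.6% of all genes). On chromosome 15, the home of B2M, 34 of 351 other genes were higher and 46 lower (22.8%), with a median of 0.01. Of the 13 tested genes nearest to the 5 HLA genes (2 on each side, leaving out HLA genes), 2 were higher and 1 lower. HCP5 (0.72), near HLA-B and HLA-C, and HCG4 (1.14), between HLA-F and HLA-G, were higher, UBD (-2.04), before HLA-F, was lower, and MICA (0.08) and POLR1H (0.00) were among those not called. Of the 9 nearest to TAP1, TAP2 and TAPBP 4 were higher and 0 lower: PSMB8 (0.73), PSMB9 (0.90), GPSM3 (1.10) and ZBTB22 (0.83). Of the 4 nearest to B2M 1 was higher, RNF4BP (0.96). Beside these counts of nearest genes, 12.9% of all tested genes were higher and 11.7% lower.

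**Figure D3:**
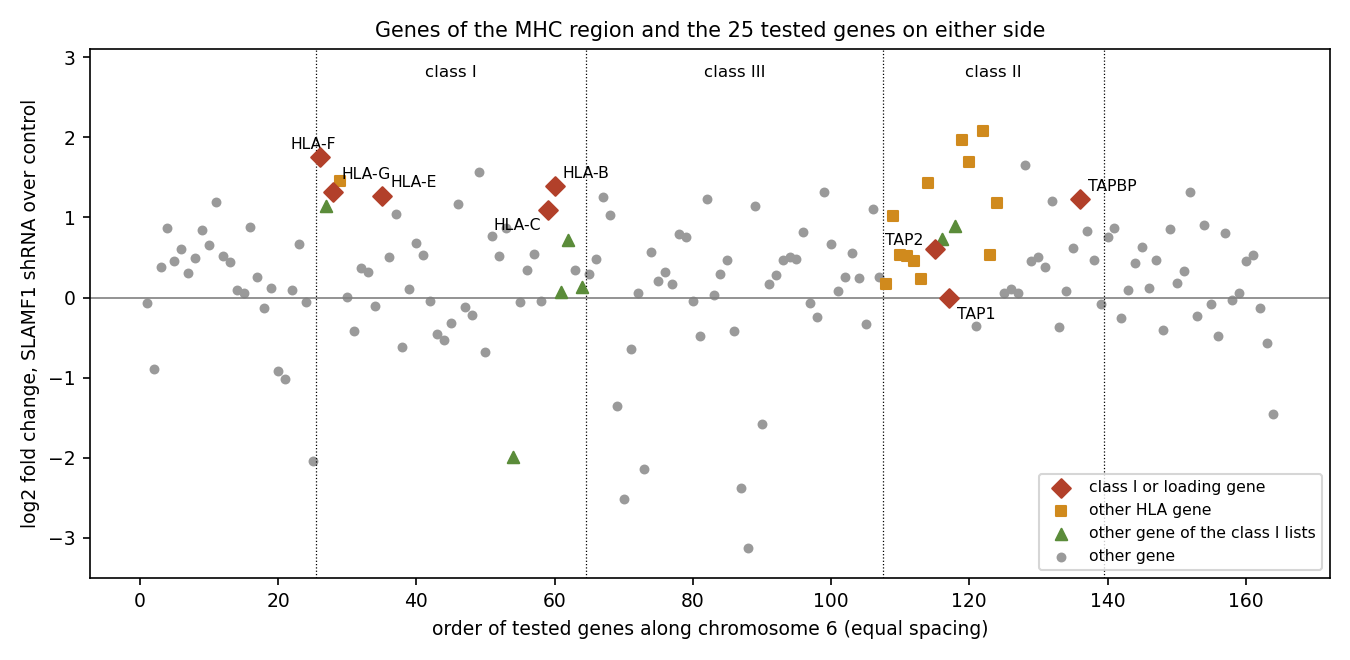
Log2 fold change (SLAMF1 shRNA over control shRNA) of each tested gene of the MHC region and of the 25 tested genes on either side, in their order along chromosome 6 at equal spacing; dotted lines bound the class I, class III and class II zones. The 5 class I HLA genes lie between 1.10 and 1.75, above most of their neighbours, whose median in the class I zone was 0.21. Some of these neighbours were dim.

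Other genes of the pathway were taken from 7 lists, of which 51 of 91 members were tested. Across all lists 14 were higher and 2 lower (31.4%, against 24.6% of all tested genes), with a median log2 fold change of 0.31. The number of higher genes was 9 without SLAMF1 shRNA replicate 3 or control replicate 3, and that of lower genes 1 without SLAMF1 shRNA replicate 1 or 3 or any 1 control replicate. Of 16 tested regulators of class I transcription 3 were higher and 0 lower (18.8%, below the 24.6% of all genes; median 0.13). IRF7 rose by 2.17 on the log2 scale (SE 0.23, limma adjusted p = 0.000543; other probes 2.26 and 1.18), IRF9 by 1.13 (SE 0.18, adjusted p = 0.00347) and IRF1, a direct activator of class I promoters, by 1.13 (SE 0.27, adjusted p = 0.0193). IRF1 was no longer called without SLAMF1 shRNA replicate 3 (adjusted p = 0.0702), without control replicate 1, 2 or 3 (0.0801, 0.0681 and 0.0687), with median centring (0.159) or with no filter on dim probes (0.0543). The interferon regulatory factor genes IRF2 (0.14, adjusted p = 0.757) and IRF8 (-0.50, adjusted p = 0.312) were tested and not called. NLRC5, the class I transactivator, singled out after its values were seen, was detected on 1 of 3 SLAMF1 shRNA arrays and 0 of 3 control arrays and was not tested.

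Of 13 tested peptide supply genes 3 were higher and 0 lower (23.1%, near the 24.6% of all genes; median 0.30). The immunoproteasome gene PSMB9, which lies beside TAP1, rose by 0.90 (SE 0.19, limma adjusted p = 0.0121), the proteasome activator gene PSME1 by 0.94 (SE 0.16, adjusted p = 0.00495) and the immunoproteasome gene PSMB8 by 0.73 (SE 0.22, adjusted p = 0.0487). Other probes differed from the tested one, with 0.08 for PSMB9, -0.36 for PSME1, and -0.16 and -0.03 for PSMB8, of which a further probe gave 0.73. With the mean of a gene's probes, and also with median centring, none of the 3 was called (adjusted p of 0.0676 to 0.199). PSMB9 was not called without control replicate 3 (adjusted p = 0.0712). PSMB8 kept its call in 4 of 18 other settings and lost it in 14 (adjusted p of 0.0511 to 0.184), among them the replicate block (0.0911) and the removal of SLAMF1 shRNA replicate 3 (0.0819) or of control replicate 1, 2 or 3 (0.0840, 0.157 and 0.171). The trimming peptidase ERAP1 gave -0.37 (SE 0.31) and ERAP2 0.70 (SE 0.42), and neither was called. A second ERAP2 probe gave 1.15 (adjusted p = 0.00640 over all kept probes).

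Of 9 tested genes of folding and quality control in the endoplasmic reticulum 2 were higher and 0 lower (22.2%, near the 24.6% of all genes; median 0.62). They were P4HB, a protein disulfide isomerase (0.93, SE 0.17, limma adjusted p = 0.00684), and PRKCSH, the beta subunit of glucosidase II (0.67, SE 0.16, adjusted p = 0.0193). PRKCSH was not called without SLAMF1 shRNA replicate 1 (adjusted p = 0.0516) or 3 (0.0720), without control replicate 1 (0.0640) or 3 (0.107), with median centring (0.248) or with the replicate block (0.0550). The chaperones that hold heavy chains before loading, CALR (-0.06, SE 0.37) and CANX (-0.29, SE 0.27), were not called. A second CANX probe gave -0.88 (limma adjusted p = 0.169 over all kept probes). PDIA3, also in the list, was not detected on any array by its brightest probe and was not tested.

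Class I-like molecules that pair with beta-2-microglobulin were among those called. Of 6 tested, from 18 in the list, 3 were higher and 0 lower (50%, against 24.6% of all tested genes, median 0.58). The 3 include CD1D, which passed the filter through the SLAMF1 shRNA arrays alone. CD1D, which presents lipids to NKT cells, was not detected on any control array and was at least 2.35-fold higher (limma adjusted p = 0.000659). Because it was detected on the SLAMF1 shRNA arrays alone, it could enter the test only by being higher there, and it did not pass the filter without any 1 of them. FCGRT, the heavy chain of the neonatal Fc receptor, rose by 1.47 (SE 0.29, limma adjusted p = 0.00902) and was detected on 2 of 3 control arrays. The size of these changes in dim genes depended on the background correction. With none, FCGRT gave 0.56 (adjusted p = 0.0494) and CD1D 0.56 (adjusted p = 0.00478). MR1, which presents vitamin metabolites, rose by 1.01 (SE 0.18, adjusted p = 0.00635). MR1 lost its call with median centring (0.75, adjusted p = 0.0968). The stress ligand genes MICA (0.08, SE 0.16) and MICB (0.14, SE 0.19), whose products need no beta-2-microglobulin, were not called. MICA was dim, with means of 4.79 with SLAMF1 shRNA and 4.72 with control shRNA. CD1A, CD1B, CD1C, CD1E and HFE of this list were not tested, and a difference by pairing with beta-2-microglobulin was not tested either.

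Of 4 tested class I pseudogenes and RNAs of the class I zone 3 were higher and 1 lower (100%, against 24.6% of all tested genes, median 0.93). HLA-H (1.45, SE 0.18, limma adjusted p = 0.00108), whose transcript resembles those of the other class I genes, and HCG4 (1.14, SE 0.19, adjusted p = 0.00445), beside HLA-G, were higher; HCG4 was not called with median centring (adjusted p = 0.0549). HCP5 rose by 0.72 (SE 0.20, adjusted p = 0.0344), a call lost without any 1 array other than SLAMF1 shRNA replicate 2 (adjusted p = 0.0864 to 0.121), with the replicate block (0.0641), with median centring (0.244) and when dim probes were kept (0.0515). HCG22 fell by 1.99 (SE 0.18, adjusted p = 0.000282) and was detected on 2 of 3 SLAMF1 shRNA arrays. With no background correction it gave -0.85 (limma adjusted p = 0.00165). Of 3 tested receptors of class I 0 were higher and 1 lower (33.3%, against 24.6% of all tested genes). The lower gene was KIR2DL4, not detected on any SLAMF1 shRNA array and at least 1.27-fold lower (limma adjusted p = 0.0347). It was not called without SLAMF1 shRNA replicate 1 (0.0833) or 3 (0.107), nor in 5 other settings, the replicate block (0.0834) among them. Detected on the 3 control arrays alone, it did not pass the filter without any 1 of them. The inhibitory receptor gene LILRB1 gave 0.46 (SE 0.23, adjusted p = 0.179) by the tested probe and 1.11 by another (adjusted p = 0.00509 over all kept probes).

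**Figure D4:**
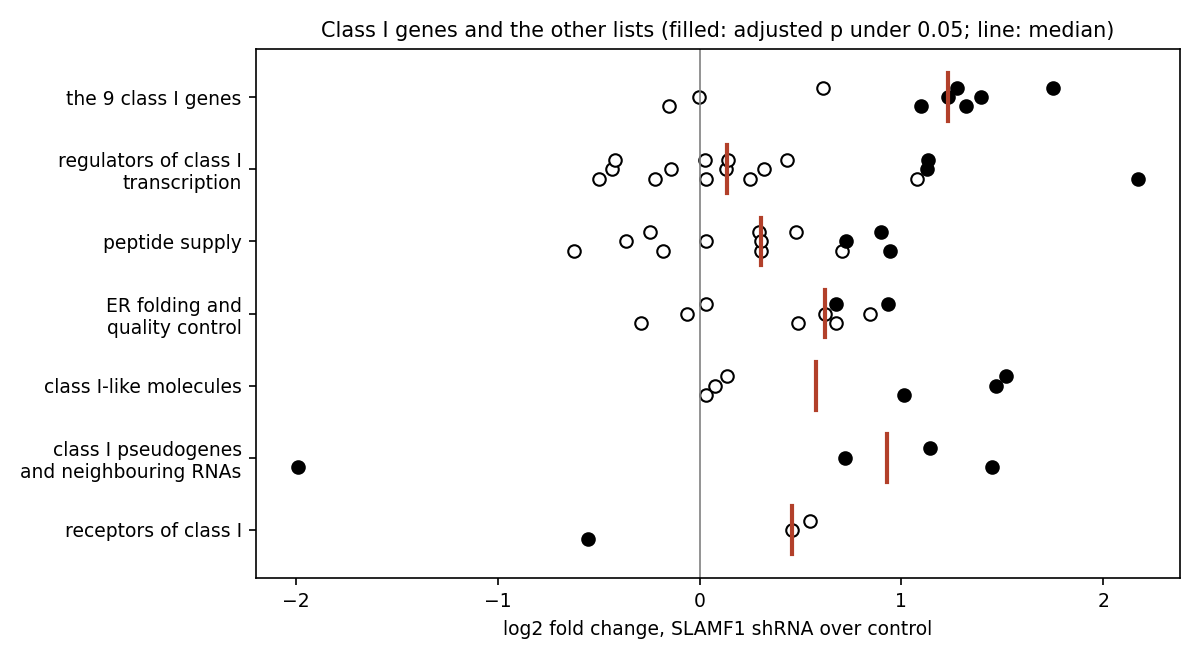
Log2 fold change (SLAMF1 shRNA over control shRNA) of the 9 class I genes and of each tested gene of the other lists; filled points passed limma's adjusted threshold, open points did not, and the red line is the list's median. The 9 class I genes have a median of 1.23, against 0.13 for the regulators and 0.30 for peptide supply.

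The genes whose pattern over the 6 arrays was most like the mean profile of the 8 chromosome 6 genes were CCNB1IP1, RASGRP2, SUPT3H, ICA1 and PIM2, each with a Pearson correlation of 0.999 with it. CCNB1IP1 had log2 levels of 9.11, 9.44 and 9.18 with SLAMF1 shRNA, against 7.69, 7.58 and 7.57 with control shRNA. Of all tested genes other than the 9, 640 correlated with the profile above 0.95, since any gene with a steady difference between the groups resembles it. Among the 9 genes themselves, HLA-B followed the profile most closely (0.998), TAP2 gave 0.80, TAP1 -0.06 and B2M -0.33. All of these but B2M are part of the profile, so their correlations with it are partly built in. Each correlation describes 6 arrays.

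B cell marker genes moved with the same contrast. The summed log2 level of the 6 measured markers was 54.4 to 54.5 with SLAMF1 shRNA and 48.3 to 49.5 with control shRNA, with CD22 (2.37), CD79A (1.93), CD79B (1.83) and CD74 (0.78) higher and MS4A1 lower (-1.45). With SLAMF1 shRNA and control shRNA, in that order, the sums of the 4 T cell markers were 17.3 to 17.6 and 17.3 to 17.7. Those of the 5 myeloid markers were 22.3 to 23.8 and 22.6 to 22.8, and these did not move as a set. CSF1R, not detected on any control array, was at least 1.53-fold higher. ITGAM went the other way (-0.37), detected on 3 of 3 control arrays and 0 of 3 SLAMF1 shRNA arrays, as did LYZ (-0.30). FCGR3A gave 0.35 and CD14 -0.07, and of the 5 only CSF1R was called. The 4 NK cell markers summed to 19.0 to 20.7 with SLAMF1 shRNA and 17.6 to 18.2 with control shRNA, but did not rise as a set. NKG7 was higher (1.98, detected on 2 of 3 control arrays), NCAM1 gave 0.09, and KLRD1 was detected on 0 of the 6 arrays. GNLY went the other way (-0.50, limma adjusted p = 0.0679), detected on 3 of 3 control arrays and 0 of 3 SLAMF1 shRNA arrays. The 5 epithelial and stromal markers summed to 21.7 to 22.0 and 22.1 to 22.5, with EPCAM, not detected on any SLAMF1 shRNA array, at least 1.35-fold lower. CSF1R, ITGAM, GNLY and EPCAM passed the filter only through the group in which they were detected. The part of these shifts in the class I result was not tested. The control arrays lay in the leading positions of the chip and the SLAMF1 shRNA arrays in the later ones, so the effect of position cannot be told apart from that of the shRNA.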

How the data were processed

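The deposited values were probe signal intensities of 6 Illumina beadchip arrays, linked to GenomeStudio per the submitters' processing notes (its version is not given in the sources used here), with no background subtracted. The authors also deposited detection p-values, 1 per signal. A second deposited table held intensities of which 100% lay within 1% of the quantile-normalized signals. It served as an alternative.

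Signals were background-corrected with nec in limma 3.58.1 (R 4.3.3, offset 16), log2-transformed and then quantile-normalized. Fold changes understate changes of dim genes. Of 47323 probes (2 without values), 19073 with a detection p-value under 0.05 on at least 3 arrays were kept. The platform annotation gave 30113 probes 1 symbol, 8 several and 17202 none, brought up to date through RefSeq (GRCh38.p14). The brightest probe represented each of 10832 genes. Limma (lmFit, eBayes) was fitted without covariates, with Benjamini-Hochberg adjustment over all genes. A fold against a group with no detection is a bound, against the higher of the lowest detected signal and the probe's own. Precision is limited by 3 arrays per group. The fit was checked on simulated data.

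Class I genes and lists were chosen with earlier results of these data known. Named from each list were up to 5 genes past the threshold, and the 5 genes with the highest correlation to the class I profile. Others are named as neighbours, for contrast or as markers, after their values were seen. Same-numbered replicates were not paired: their deviations from the group means correlated at -0.20, -0.14 and 0.21. Alternatives were other background, offset, scaling, filter, probe and variance settings, array weights (gene by gene, as the default estimate did not converge), a replicate block, and leaving out each array.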

Additional observations from a re-analysis of the deposited data

How the results depend on the processing

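Over 18 other settings 5 to 7 of the 9 class I genes were called higher and 0 lower, and HLA-B, HLA-E, HLA-F and TAPBP passed in every one of them; HLA-C was lost with median centring and HLA-G without control replicate 3, and TAP2 passed with array weights and without SLAMF1 shRNA replicate 2. SLAMF1 was called higher with array weights. The exact permutation test cannot pass at this size. Relative to B2M, 2 genes passed, but 4 with no background correction, 4 with the second deposited table, 4 with the mean of a gene's probes, 5 with median centring, 6 with no filter on dim probes, 1 with the stricter filter (all arrays detected at 0.01), 7 with array weights, 6 with the second B2M probe (7 also without SLAMF1 shRNA replicate 2; both chosen after seeing the data), and 0 to 7 leaving out an array. With the replicate block, for numbers that do not pair the samples, 0 passed relative to B2M and 6 class I genes were called, while 1 list gene was called lower, as against 2; of the same-numbered arrays only the pair of replicates 3 correlated best with each other on both sides.

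Higher neighbours in the MHC region numbered 7 with no background correction, 7 with median centring, 7 with the second deposited table, 7 with no filter and 26 with array weights, and 4 to 15 leaving out an array, against 11. Lower ones numbered 3 with the stricter filter, 14 with array weights and 6 to 11 leaving out an array, against 7. Of all genes, 1400 were higher and 1269 lower; 815 were higher with median centring, 2758 higher and 2618 lower with array weights, 830 lower with the stricter filter, and 621 to 1981 higher and 463 to 1894 lower leaving out an array. List genes called higher numbered 6 with median centring, 22 with array weights and 9 to 16 leaving out an array, against 14. List genes called lower numbered 1 with no background correction, 1 with an offset of 50, 1 with median centring, 1 with the second deposited table, 0 with the stricter filter and 1 to 3 leaving out an array. The causes were not tested. Signals near background limit the dim TAPBP probes, NLRC5 and the second HLA-C probe.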
